A study of Rattus norvegicus with 19 samples.

Results

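Translation initiation factors (eIFs) and elongation factors (eEFs) are the soluble proteins that place a ribosome on the start codon of an mRNA and then move it along the reading frame. On the rat retina arrays examined here they were taken as the genes whose annotated symbol begins with Eif or Eef followed by a digit. The array carries 51 such genes on 55 probes, of 12978 genes with a symbol in all. A gene was kept where, in 1 or more of the groups, each array gave a detection p under 0.05, which left 46 of the 51, and 7345 genes over the whole table. The 5 genes that did not pass, Eif1ax, Eif2a, Eif3b, Eif3k and Eef2kmt, were detected on 0 of the 19 arrays and are not described further. Among the 46, Eif5a2 was detected on 7 of 7 insulin-treated, 3 of 5 diabetic and 6 of 7 control arrays, and so passed through the insulin-treated group alone, while every other factor was detected on all 19. Where a gene had several probes, the one with the highest mean signal was used. The symbols also take in kinases, binding proteins and methyltransferases named after a factor, and Eef1e1, whose product is better known as a scaffold of the aminoacyl-tRNA synthetase complex.

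Retinas came from male Sprague-Dawley rats, 1 array per rat, 3 months after the start of the experiment. Insulin-treated diabetic rats (STZ + insulin, n = 7) and diabetic rats (STZ, n = 5) had received an intraperitoneal injection of 65 mg/kg streptozotocin, which destroys the insulin-producing beta cells. The insulin-treated diabetic rats also carried subcutaneous insulin pellets of 26 mg from week 6, so that they had been diabetic without insulin before that. Non-diabetic controls (n = 7) received the citrate vehicle alone. The dissected retina kept the pigment epithelium, and RNA was taken from the whole tissue, so that fewer cells of a type and less RNA per cell cannot be told apart. All 9 rod and cone genes fixed as markers of the tissue were detected. Of 4 leukocyte markers Aif1 was detected, on all 19 arrays, and Ptprc, Cd74 and Cd68 were not.

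In translation, eIF2 carries the initiator tRNA to the small ribosomal subunit as a complex with GTP, and the exchange factor eIF2B recharges it with GTP after each round. Phosphorylation of the alpha subunit of eIF2 by stress kinases turns eIF2 into an inhibitor of eIF2B, while eIF4E, which binds the mRNA cap, is held in check by the 4E-binding proteins under the control of the insulin-responsive kinase mTORC1. These switches act on proteins. The arrays measured mRNA, and nothing here bears on phosphorylation or on the rate of translation.

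Of the 46 factors, 3 passed the test in at least 1 comparison, namely Eef1e1, Eif1b and Eif1ad. Between diabetic and control rats 1 of the 46 passed, beside 2.79% of all probes tested. Between insulin-treated and diabetic rats 3 passed, beside 10.4%. The 250 bases before the transcription start of Eef1e1, Eif1b and Eif1ad are shown because these 3 genes were all higher with insulin than in diabetic rats. The sequences are from RefSeq, build GRCr8, all on the plus strand and written from 5′ to 3′, and lie at chr17:26353997-26354246 for Eef1e1, chr8:129080908-129081157 for Eif1b and chr1:212103465-212103714 for Eif1ad. Capitals mark matches to 3 short motifs that were searched on both strands, CCAAT (the CCAAT box), CACGTG (an E-box, the core bound by Myc) and CCGGAAGT (a core bound by ETS factors).
Eef1e1: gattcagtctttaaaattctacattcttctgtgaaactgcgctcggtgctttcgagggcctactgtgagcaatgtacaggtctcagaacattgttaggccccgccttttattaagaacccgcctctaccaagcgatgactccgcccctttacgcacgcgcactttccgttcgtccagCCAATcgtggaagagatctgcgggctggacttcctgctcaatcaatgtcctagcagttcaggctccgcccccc
Eif1b: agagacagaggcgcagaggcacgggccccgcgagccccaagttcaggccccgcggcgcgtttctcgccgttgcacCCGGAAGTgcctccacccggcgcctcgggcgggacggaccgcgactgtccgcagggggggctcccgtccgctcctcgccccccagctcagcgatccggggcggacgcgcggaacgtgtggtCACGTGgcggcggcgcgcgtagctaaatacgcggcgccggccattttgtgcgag
Eif1ad: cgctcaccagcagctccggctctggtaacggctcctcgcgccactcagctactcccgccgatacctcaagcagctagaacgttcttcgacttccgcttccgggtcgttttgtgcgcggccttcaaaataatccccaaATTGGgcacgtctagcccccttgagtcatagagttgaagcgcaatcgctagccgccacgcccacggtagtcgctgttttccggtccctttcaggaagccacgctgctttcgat
The windows of Eef1e1 and Eif1ad held CCAAT, at -73 to -69 and, on the minus strand, at -113 to -109 from the start. The window of Eif1b held no CCAAT but had CACGTG at -54 to -49 and CCGGAAGT at -175 to -168. No motif was thus shared by all 3. RefSeq windows were matched to 40 of the 46 factors, and those of Eef1d, Eif3h, Eif4b, Eif4e3, Eif4ebp1 and Eif5 were not in the table used. CCGGAAGT occurred in 8 of the 40 (20%), against 3.1% of 33469 windows of the same length over all genes. The 2 sets are unlike, since the factors are detected genes with 1 window each. The 33469 hold several windows for some genes and were not limited to detected genes. CACGTG occurred in 7 (17.5%), against 5.59% of all windows, and CCAAT in 10 (25%), against 34%. The amino acid response element TGATGNAAT, bound by Atf4 when eIF2 is phosphorylated, matched 0 of the 40 windows and 0.944% of all windows.

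Diabetic retinas were first compared with those of non-diabetic controls, to see what diabetes did to these mRNAs. Eef1e1 was lower in diabetic rats, and none of the other factors passed an adjusted p of 0.05 (limma, Benjamini-Hochberg over 10718 detected probes). That is 1 of 46, beside 2.79% of all probes tested, or 1.9% if lower probes alone are counted. The difference was below 0 for 38 of 46 factors (31 under quantile normalization or neqc), beside 64.7% of all probes, and the median difference was -0.10 over the factors and -0.07 over all probes. At an unadjusted p under 0.05, 11 factors were lower and 0 higher, beside 15.5% and 5.36% of all probes. The 11 were Eef1a2, Eef1e1, Eif1a, Eif1ad, Eif1b, Eif2b2, Eif2b3, Eif2b4, Eif2b5, Eif2s2 and Eif5a2, the last of them detected on 3 of 5 diabetic arrays. Adding the study's requirement of a fold change over 1.2 left 5 factors, beside 14.3% of all probes.

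Insulin-treated diabetic rats were then compared with diabetic rats, to see whether insulin given from week 6 moved these levels. Eef1e1, Eif1b and Eif1ad were higher with insulin, 3 of 46 factors, beside 10.4% of all probes, or 6.49% if higher probes alone are counted. None of the 46 was lower at an adjusted p under 0.05, beside 3.93% of all probes. At an unadjusted p under 0.05, 9 factors were higher and 1, Eif5a, was lower, beside 17.7% and 9.41% of all probes. The difference was above 0 for 35 of 46 factors, beside 61.3% of all probes, and the median was 0.09 over the factors and 0.06 over all probes. Insulin-treated diabetic rats and controls differed in 0 of 46 factors, beside 0.00933% of all probes, which is 1 probe. At an unadjusted p under 0.05 there were 4 factors, Eif2ak3 higher and Eif4ebp1, Eif4e2 and Eif4e3 lower, beside 2.88% and 6.1% of all probes. The comparisons with diabetic rats share the 5 diabetic arrays, and those with controls share the 7 control arrays, so a low value in diabetic rats enters both of the first 2 with opposite signs.

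**Figure D1:**
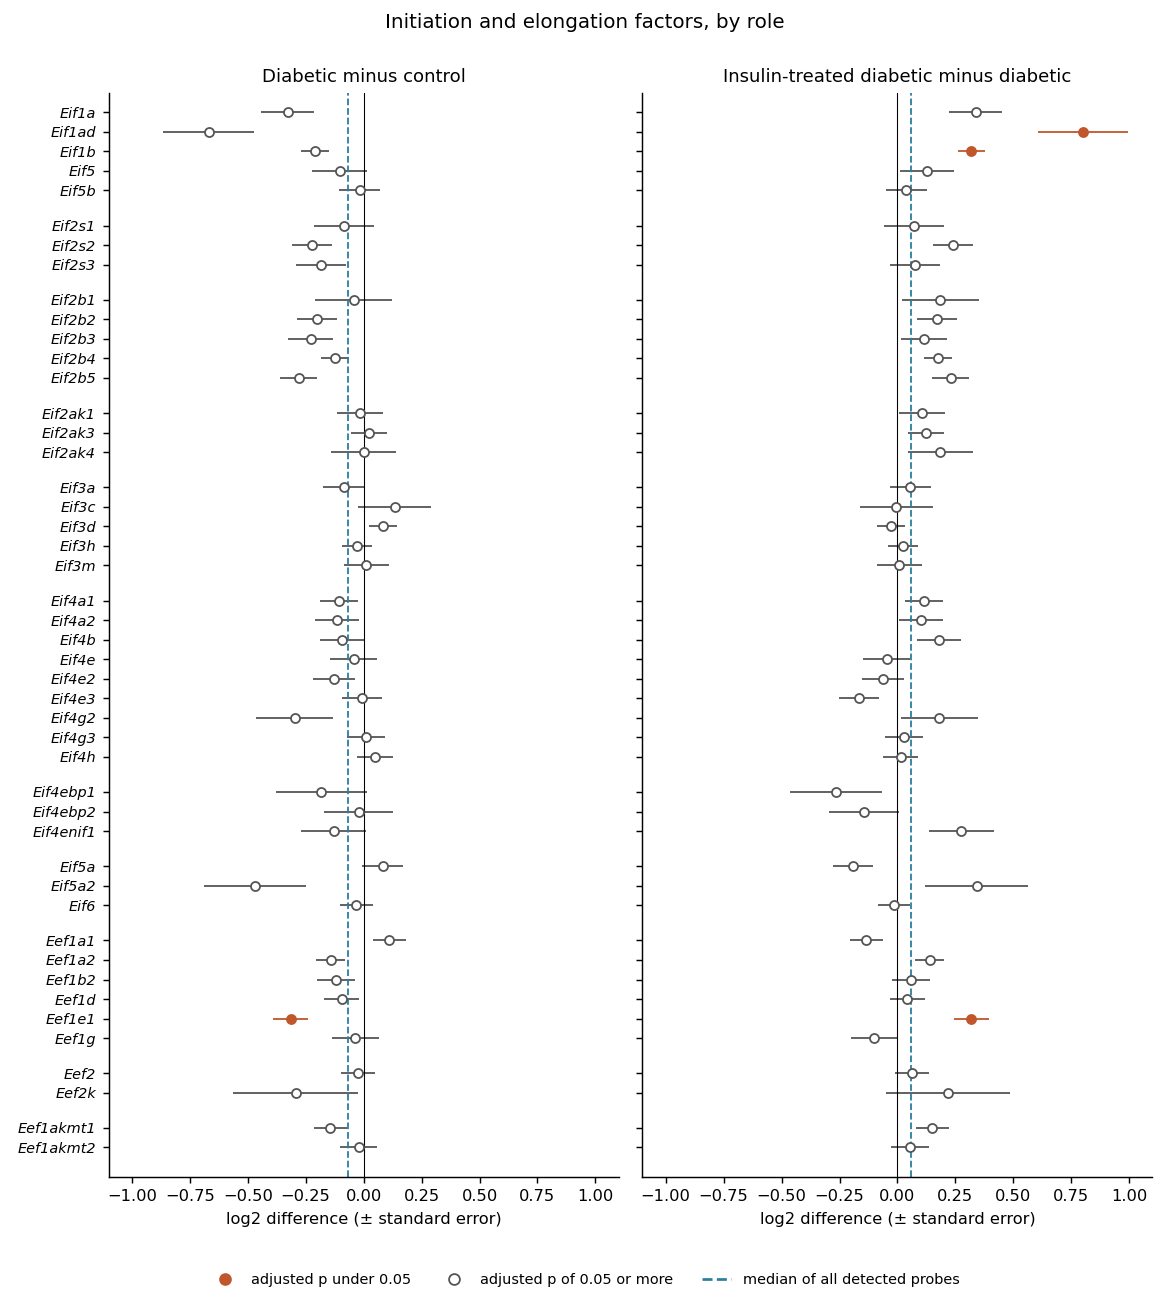
Log2 difference (x axis, with limma's standard error) of each of the 46 factors, grouped from top to bottom by role, for diabetic minus control rats (left) and insulin-treated diabetic minus diabetic rats (right). Filled points passed an adjusted p of 0.05 and the dashed line is the median of all 10718 probes, -0.07 on the left and 0.06 on the right. On the left 38 points lie below 0 (31 under quantile normalization or neqc).

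Eif1b encodes a close relative of eIF1, which keeps the ribosome scanning until a start codon is met. Its log2 signal was 11.53 to 11.71 (median 11.65) in insulin-treated diabetic rats. The 5 diabetic rats had 11.35, 11.52, 11.25, 11.26 and 11.23, and the controls had 11.47 to 11.61 (median 11.52). The insulin-treated rats all stood above the 5 diabetic rats, as they did for Eif2b4 among the 46 factors (2 of 46, beside 2.21% of all probes), while the highest diabetic rat reached into the control range. The level with insulin was 0.32 ± 0.06 higher than in diabetic rats (log2 difference ± SE, 1.25-fold, adjusted p = 0.0052 in limma). The diabetic level was 0.21 ± 0.06 lower than in controls, with an adjusted p of 0.058. With insulin it was 0.11 ± 0.05 above controls (adjusted p = 0.59). Probes for Eif1b may also bind the transcripts of its near-identical relative Eif1, and the sequence of the probes was not examined.

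Eif1ad encodes a protein with the fold of eIF1A. It had the widest span of the 3 genes, with log2 signals of 6.99 to 7.72 (median 7.13) in insulin-treated diabetic rats. The diabetic rats had 6.94, 5.89, 6.51, 6.07 and 7.14, and the controls 6.91 to 7.63 (median 7.13). The diabetic rats of replicates 2, 3 and 4 lay below every other rat and the other 2 lay within the range of the controls. The level was 0.80 ± 0.20 higher with insulin than in diabetic rats (1.74-fold, adjusted p = 0.017 in limma) and 0.67 ± 0.20 lower in diabetic rats than in controls (adjusted p = 0.065). Without the diabetic rat of the lowest signal, replicate 2, the adjusted p with insulin was 0.055.

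Eif1a, Eif5 and Eif5b, grouped by role with Eif1b and Eif1ad, did not pass. Whether the product of Eif1ad takes part in start codon selection was not examined. Eif1a, whose product eIF1A works with eIF1 on the scanning ribosome, averaged 9.47 ± 0.16 in insulin-treated diabetic rats, 9.14 ± 0.33 in diabetic rats and 9.46 ± 0.08 in controls (SD). The difference was 0.34 ± 0.11 with insulin (adjusted p = 0.066) and -0.33 ± 0.11 in diabetes (adjusted p = 0.11). Eif5, which stimulates GTP hydrolysis on eIF2, and Eif5b, which joins the ribosomal subunits, differed by 0.13 or less in each comparison, less than 1.5 standard errors. Whether Eif1a, Eif1ad and Eif1b differ from Eif5 and Eif5b in their response was not tested.

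**Figure D2:**
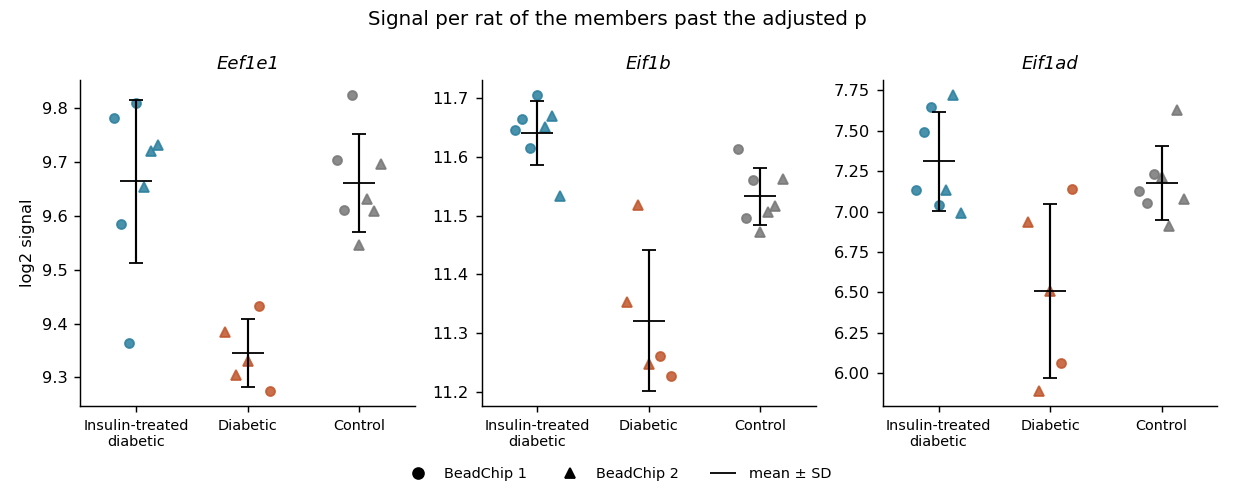
Log2 signal (y axis, a separate scale for each gene) of Eef1e1, Eif1b and Eif1ad in every rat, with circles for BeadChip 1, triangles for BeadChip 2, and the mean and SD of each group. For Eef1e1 the 5 diabetic rats lie below every control, and for Eif1b they lie below every insulin-treated rat.

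Eef1e1 was the factor that passed in both comparisons with diabetic rats. Its log2 signal was 9.36 to 9.81 (median 9.72) in insulin-treated diabetic rats. The diabetic rats had 9.38, 9.30, 9.33, 9.43 and 9.27, and the controls 9.55 to 9.83 (median 9.63). All 5 diabetic rats stood below all controls, the one factor of 46 for which this was so (beside 2.2% of all probes), and 6 of 7 insulin-treated rats stood above every diabetic rat. The diabetic level was 0.31 ± 0.07 lower than in controls (0.80-fold, adjusted p = 0.036), and the level with insulin was 0.32 ± 0.07 higher than in diabetic rats (1.25-fold, adjusted p = 0.015). Insulin-treated diabetic rats and controls differed by 0.00 ± 0.07 (adjusted p = 0.998). The diabetic rats were also the most alike, with an SD of 0.06, the smallest of any factor in that group. Within BeadChip 1 the difference was -0.36 between diabetic and control rats and 0.28 between insulin-treated and diabetic rats, and within BeadChip 2 it was -0.28 and 0.36. The call in diabetes depended on single arrays. It was lost without any 1 of control replicates 1, 2, 3, 5 and 7 or diabetic replicates 2 and 5, with adjusted p of 0.051 to 0.077, and under quantile normalization, neqc and median centring, with 0.063 to 0.091. The call with insulin remained when any 1 array was left out.

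Despite its name, the product of Eef1e1 (also called p18 or AIMP3) sits in the multi-tRNA synthetase complex, so its partners there were read beside it. Of 6 detected genes of that complex outside the Eif and Eef symbols, 2 were higher with insulin and 0 lower, beside 6.49% and 3.93% of all probes. Iars1, the isoleucyl-tRNA synthetase, averaged 10.63 ± 0.21 in insulin-treated diabetic rats, 10.01 ± 0.45 in diabetic rats and 10.55 ± 0.13 in controls, a difference of 0.63 ± 0.15 with insulin (adjusted p = 0.017 in limma). Lars1, the leucyl-tRNA synthetase, was 0.48 ± 0.14 higher with insulin (adjusted p = 0.039). Without diabetic replicate 2, the adjusted p was 0.052 for Iars1 and 0.076 for Lars1. The call of Lars1 was also lost without diabetic replicates 3 or 4 or insulin-treated replicates 2, 5, 6 or 7, and its difference was lowest without diabetic replicate 4, at 0.31 (adjusted p = 0.099). The differences were 0.57 for Eprs1, 0.24 for Rars1, -0.03 for Aimp1 and -0.05 for Kars1, none past the test. In diabetic against control rats none of the 6 passed, and the lowest was Iars1 at -0.54 (adjusted p = 0.057).

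The other eEF1 genes, which deliver aminoacyl-tRNA to the ribosome and recycle the carrier, moved little over all arrays. Eef1a2, the form of the tRNA carrier found in neurons and muscle, averaged 11.56 ± 0.07 in insulin-treated diabetic rats, 11.42 ± 0.08 in diabetic rats and 11.56 ± 0.10 in controls. Its differences were 0.14 ± 0.06 with insulin (adjusted p = 0.16) and -0.14 ± 0.06 in diabetes (adjusted p = 0.21). Eef1b2, Eef1d and Eef1g, subunits of the exchange factor that reloads eEF1A with GTP, differed by 0.12 or less between diabetic and control rats and by 0.10 or less between insulin-treated and diabetic rats. For Eef1g the BeadChips did not agree. Its difference in diabetes was 0.22 within BeadChip 1 and -0.21 within BeadChip 2, and with insulin it was -0.28 and -0.01.

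Eef1a1, the widely expressed tRNA carrier, is measured by 4 probes with 1 accession, and they did not agree. The probe with the highest signal read 13.39 to 13.61 (median 13.54) in insulin-treated diabetic rats. It read 13.68, 13.45, 13.73, 13.78 and 13.63 in diabetic rats and 13.41 to 13.69 (median 13.52) in controls. Its difference between diabetic and control rats was 0.11 ± 0.07, and that of another probe was also 0.11 ± 0.07, while that of the third was -0.19 ± 0.09 (adjusted p = 0.39, 0.42 and 0.22 in limma). Under quantile normalization and neqc the difference of the first probe turned to -0.05. The fourth lay at the floor of the scale on every array. With insulin the same 3 probes read -0.14, -0.15 and 0.09 relative to diabetic rats, and the first of these turned to 0.04 under quantile normalization and neqc. No direction is given for Eef1a1 for this reason. The rat genome holds many processed copies of this gene, and which transcripts each probe binds was not examined.

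**Figure D3:**
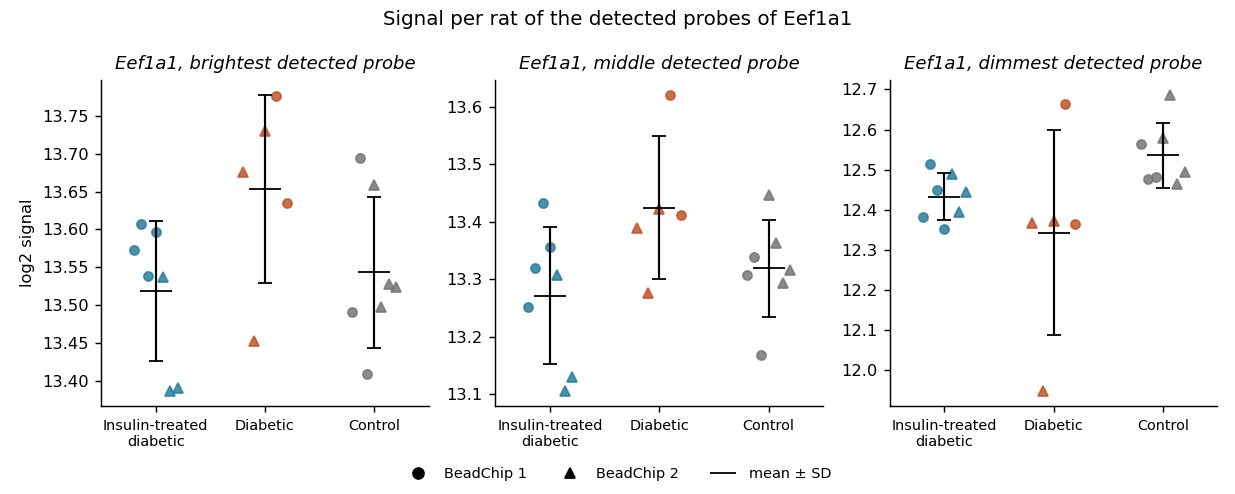
Log2 signal (y axis, a separate scale for each probe) of the 3 detected probes of Eef1a1 in every rat, with circles for BeadChip 1, triangles for BeadChip 2, and the mean and SD of each group. The diabetic mean is above the control mean for 2 probes (0.11 each) and below it for the third (-0.19).

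None of the genes of eIF2B, of eIF2 or of the eIF2 kinases passed in diabetic against control rats. Eif2b1 to Eif2b5 encode the 5 subunits of eIF2B, and their differences between diabetic and control rats were all below 0 (except Eif2b1, at 0.02 under quantile normalization and neqc and at 0.30 within BeadChip 1), with a median of -0.20, beside -0.07 for all probes. Of the 5, 4 were lower at an unadjusted p under 0.05 and 0 passed after adjustment, beside 15.5% and 1.9% of all probes on the lower side. The catalytic subunit gene Eif2b5 came closest. It read 9.76 to 10.05 (median 10.01) in insulin-treated diabetic rats. The diabetic rats had 9.81, 9.48, 9.63, 9.82 and 9.91, and the controls 9.88 to 10.18 (median 10.00). The diabetic rats had 1 value, 9.91, within the control range and the rest below it. The difference was -0.28 ± 0.08 in diabetes (adjusted p = 0.063 in limma) and 0.23 ± 0.08 with insulin (adjusted p = 0.075). Leaving out 1 array moved the difference in diabetes between -0.22 without diabetic replicate 2 (adjusted p = 0.17) and -0.33 without diabetic replicate 5 (adjusted p = 0.043), and the adjusted p was 0.0499 without insulin-treated replicate 4. Without both diabetic replicates 2 and 3 it was -0.16 (adjusted p = 0.33).

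The other subunits were closer together. Eif2b2, Eif2b3 and Eif2b4 differed by -0.20 ± 0.09, -0.23 ± 0.10 and -0.12 ± 0.06 between diabetic and control rats, with adjusted p of 0.19, 0.19 and 0.24. Eif2b1, the regulatory alpha subunit, differed by -0.04 ± 0.17. With insulin the 5 differences were 0.11 to 0.23 over all arrays, though below 0 for Eif2b1 and Eif2b3 within BeadChip 1. Of the 5, 2 were higher at an unadjusted p under 0.05, Eif2b4 and Eif2b5, beside 17.7% of all probes. For Eif2b4 the insulin-treated rats read 10.81 to 10.97 and the diabetic rats 10.60 to 10.78, with no overlap (difference 0.17 ± 0.06, adjusted p = 0.063). Insulin-treated diabetic rats and controls differed by -0.11 to 0.14 over the 5 subunits. The BeadChips differed in size and, for 2 subunits, in direction. For Eif2b1 the difference between diabetic and control rats was 0.30 within BeadChip 1 and -0.29 within BeadChip 2, and with insulin it was -0.09 and 0.45. For Eif2b3 the difference with insulin was -0.08 within BeadChip 1 and 0.27 within BeadChip 2. For Eif2b5 the difference between diabetic and control rats was -0.15 within BeadChip 1 and -0.36 within BeadChip 2, and for Eif2b3 it was -0.03 and -0.36.

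**Figure D4:**
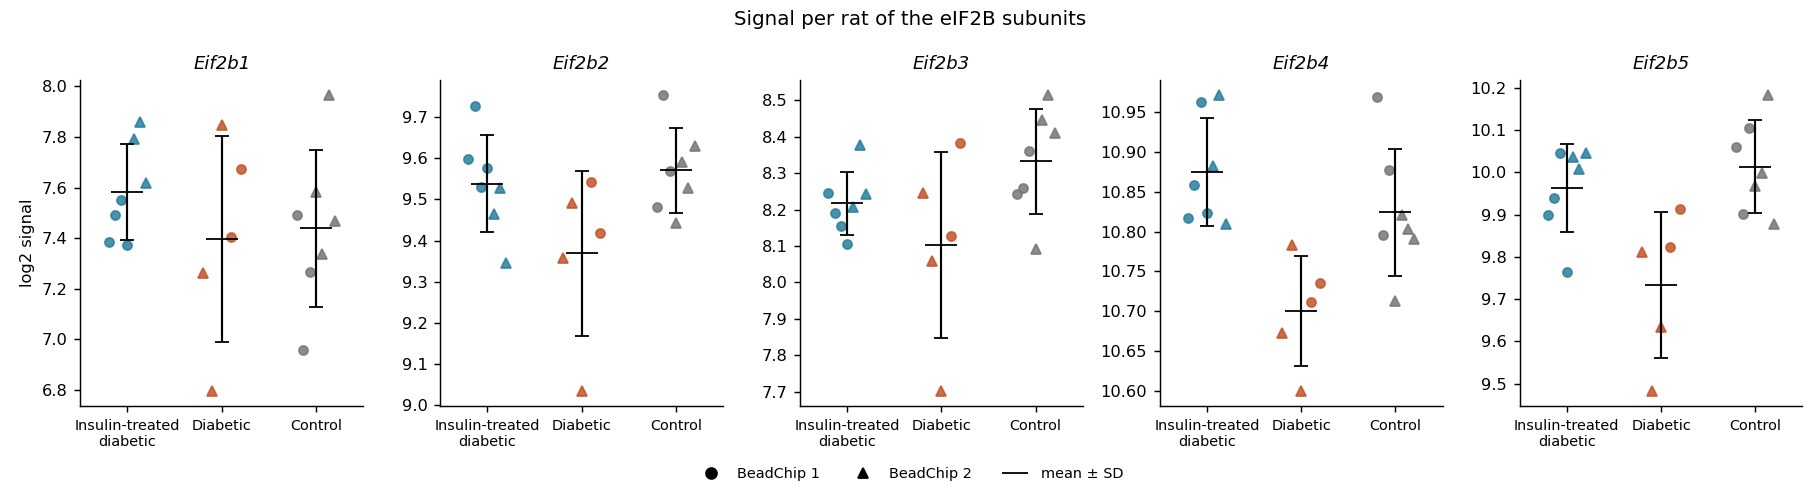
Log2 signal (y axis, a separate scale for each gene) of the 5 eIF2B subunit genes in every rat, with circles for BeadChip 1, triangles for BeadChip 2, and the mean and SD of each group. The diabetic mean is below the control mean in every panel, by 0.04 (Eif2b1) to 0.28 (Eif2b5) on the log2 scale (Eif2b1 turned to 0.02 above under quantile normalization and neqc, and to 0.30 above within BeadChip 1), and diabetic rats overlap controls in each.

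The subunits of eIF2 itself were also below 0 in diabetes over all arrays, though not Eif2s1 and Eif2s3 within BeadChip 1. Eif2s2, the beta subunit gene, read 11.65 to 12.05 (median 11.92) in insulin-treated diabetic rats. The diabetic rats had 11.80, 11.48, 11.67, 11.44 and 11.84, and the controls 11.83 to 11.94 (median 11.85). Controls were the most alike of any factor in that group (SD 0.05), and 1 diabetic rat reached their range. The difference was -0.22 ± 0.09 in diabetes (adjusted p = 0.14 in limma) and 0.24 ± 0.09 with insulin (adjusted p = 0.082). Eif2s1, whose product carries the serine phosphorylated under stress, and Eif2s3, the GTP-binding subunit, differed by -0.09 and -0.18 in diabetes and by 0.07 and 0.08 with insulin, none past the test. Within BeadChip 1 these differences were 0.03 and 0.01 in diabetes and -0.17 and -0.12 with insulin. Within BeadChip 2 they were -0.17 and -0.32 in diabetes and 0.34 and 0.23 with insulin.

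Of the kinases of eIF2, Eif2ak1 (activated when heme is low), Eif2ak3 (PERK, activated by unfolded protein in the endoplasmic reticulum) and Eif2ak4 (GCN2, activated by uncharged tRNA) were detected. Between diabetic and control rats their differences were -0.02, 0.02 and 0.00, each smaller than its standard error. Eif2ak3 had the smallest p of the 3 in any comparison. It read 7.58 to 7.85 (median 7.69) in insulin-treated diabetic rats, 7.55, 7.35, 7.78, 7.57 and 7.68 in diabetic rats, and 7.41 to 7.67 (median 7.57) in controls. The groups overlapped, and the difference between insulin-treated diabetic rats and controls was 0.15 ± 0.07 (unadjusted p = 0.049, adjusted p = 0.55 in limma). Of the genes for eIF2 phosphatase subunits, Ppp1r15b, detected on 4 of 5 diabetic arrays with 1 at the floor, differed by -0.73 in diabetes and 0.67 with insulin (0.02 within BeadChip 1 and 1.24 within BeadChip 2), and Ppp1r15a by -0.21 and 0.21, none past the test.

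Genes of the scaffold eIF3, which holds the small subunit and the mRNA together, showed differences of -0.09 to 0.13 between diabetic and control rats and of -0.03 to 0.06 between insulin-treated and diabetic rats over Eif3a, Eif3c, Eif3d, Eif3h and Eif3m. The smallest p was that of Eif3d in diabetes. It read 10.15 to 10.31 (median 10.24) in insulin-treated diabetic rats, 10.20, 10.33, 10.14, 10.42 and 10.22 in diabetic rats, and 10.11 to 10.25 (median 10.17) in controls. The groups overlapped (0.08 ± 0.06, adjusted p = 0.43 in limma).

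The cap-binding complex eIF4F and its helpers held 9 detected genes, and 0 passed in any comparison. The median difference was -0.10 in diabetes and 0.03 with insulin. Eif4e, the cap-binding protein, differed by -0.04 ± 0.10 and -0.05 ± 0.10. The helicase genes Eif4a1 and Eif4a2, near-identical in sequence, both differed by -0.11 in diabetes and by 0.12 and 0.10 with insulin. Eif4g2, whose product takes part in cap-independent initiation, had the lowest difference in diabetes at -0.30 ± 0.17 (adjusted p = 0.32). This rested largely on 1 diabetic rat at 9.02, the others reading 9.84 to 10.28 and the controls 10.02 to 10.33. The cap-binding relatives Eif4e2 and Eif4e3 were lower in insulin-treated diabetic rats than in controls at an unadjusted p alone. Eif4e2 read 7.84 to 8.18 (median 8.01) in insulin-treated diabetic rats, 7.95, 7.96, 7.94, 8.38 and 8.001 in diabetic rats and 7.97 to 8.37 (median 8.18) in controls. The insulin-treated rats overlapped the controls, with a difference of -0.19 ± 0.08 (adjusted p = 0.47 in limma), and that of Eif4e3 was -0.18 ± 0.08 (adjusted p = 0.51).

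Among the 4E-binding proteins, Eif4ebp1, the best known target of mTORC1 in this system, had its lowest mean in the insulin-treated group. It read 7.34 to 8.01 (median 7.46) in insulin-treated diabetic rats. The diabetic rats had 8.28, 7.73, 6.96, 8.05 and 8.14, and the controls had 7.51 to 8.38 (median 8.12). One diabetic rat lay below all other rats and the remaining 4 lay inside the control range. The difference between insulin-treated diabetic rats and controls was -0.45 ± 0.18 (0.73-fold, unadjusted p = 0.022, adjusted p = 0.42 in limma). It was -0.11 with the lens markers as a covariate. It was -0.26 ± 0.20 against diabetic rats, and -0.18 ± 0.20 between diabetic rats and controls. Eif4ebp2 differed by 0.17 or less in each comparison. Eif4enif1, which carries eIF4E into the nucleus, was 0.27 ± 0.14 higher with insulin than in diabetic rats (adjusted p = 0.22).

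Eif5a, the substrate of hypusine modification, helps ribosomes through stretches that stall them. It had the one unadjusted p under 0.05 on the lower side with insulin. It read 9.38 to 9.80 (median 9.65) in insulin-treated diabetic rats, 9.95, 9.98, 9.72, 9.80 and 9.74 in diabetic rats, and 9.51 to 9.93 (median 9.76) in controls. The difference with insulin was -0.19 ± 0.09 (adjusted p = 0.16 in limma), and it was -0.02 within BeadChip 1 and -0.37 within BeadChip 2. Its paralog Eif5a2 read 3.92, 3.32, 4.41, 4.90 and 4.69 in diabetic rats, against 4.35 to 5.23 in controls, and the second of these diabetic rats was at the floor. The difference of -0.47 ± 0.22 (adjusted p = 0.23) is therefore poorly determined. Eif6, which keeps the large ribosomal subunit from joining too early, differed by 0.05 or less in each comparison.

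Eef2, the translocase that moves the ribosome by 1 codon, differed by -0.02 ± 0.07 in diabetes, 0.06 ± 0.07 with insulin and 0.04 ± 0.07 between insulin-treated diabetic rats and controls. Its kinase gene Eef2k was the most variable factor among both diabetic and control rats. It read 7.61 to 8.39 (median 8.14) in insulin-treated diabetic rats, 8.34, 6.74, 8.19, 8.51 and 7.52 in diabetic rats, and 7.23 to 8.50 (median 8.36) in controls. With an SD of 0.73 in diabetic rats, its difference from controls of -0.29 ± 0.27 was not resolved (adjusted p = 0.56 in limma). The genes of 2 methyltransferases that modify eEF1A were detected. Eef1akmt1 read 8.57 to 8.84 (median 8.72) in insulin-treated diabetic rats, 8.49, 8.61, 8.50, 8.67 and 8.48 in diabetic rats, and 8.53 to 8.89 (median 8.66) in controls. It differed by 0.15 ± 0.07 with insulin (adjusted p = 0.18) with overlapping groups, and Eef1akmt2 by 0.05 ± 0.08.

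The diabetic rats varied more than the others over the factors as a whole. The median SD over the 46 factors was 0.14 in insulin-treated diabetic rats, 0.19 in diabetic rats and 0.11 in controls, beside 0.19, 0.23 and 0.16 over all probes. In limma's array weights, diabetic replicates 2 and 3 were the lowest of the 19 arrays, at 0.34 each, with the next at 0.52. Without these 2 arrays, 0 factors passed in diabetes and 1, Eif1b (0.36, adjusted p = 0.0061), with insulin, beside 0.569% and 4.81% of all probes. The differences in diabetes were then -0.16 for Eif2b5, -0.08 for Eif2b3, -0.13 for Eif2b2, -0.21 for Eif5a2 and -0.03 for Eef2k.

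Genes of the crystallins and other lens proteins also moved between the groups, although the lens had been removed at dissection. Of the 8 lens markers on the array, 8 were detected. Their summed signal was 1117 to 12987 in insulin-treated diabetic rats, 10362 to 68923 in diabetic rats and 3851 to 50259 in controls. With insulin 7 of the 8 were lower than in diabetic rats, beside 3.93% of all probes, and 0 passed between diabetic rats and controls. Among the 7, Gja3 was detected on 5 of 5 diabetic, 1 of 7 insulin-treated and 5 of 7 control arrays. It thus passed detection through the diabetic group alone, where its signal was highest. Of the markers of other cells, 1 of 9 rod and cone genes passed with insulin, beside 10.4% of all probes. It was Crx, at 0.54 with insulin (adjusted p = 0.015 in limma) and -0.35 in diabetes (adjusted p = 0.12). Among bipolar, amacrine and ganglion cells (7 of 8 detected), Müller glia (3 of 4) and pigment epithelium (2 of 2), 0 passed in either comparison. The same held for red blood cells (1 of 3) and leukocytes (1 of 4). The pigment epithelium genes Rpe65 and Ttr differed by -1.11 and -0.99 in diabetes (adjusted p = 0.19 and 0.34). Between insulin-treated diabetic rats and controls they differed by -0.85 and -1.04 (adjusted p = 0.61 and 0.60). With the mean of the lens markers as a covariate, 0 factors passed in either comparison, beside 127 of all 10718 probes in diabetes and 2 with insulin. The fitted differences were then -0.28 for Eef1e1 in diabetes (adjusted p = 0.082), and 0.23 for Eef1e1, 0.26 for Eif1b and 0.87 for Eif1ad with insulin (adjusted p = 0.37, 0.21 and 0.21). The SE with insulin rose from 0.07 to 0.10 for Eef1e1, from 0.06 to 0.08 for Eif1b and from 0.20 to 0.28 for Eif1ad. The lens mean itself was 7.18 in insulin-treated diabetic rats, 10.49 in diabetic rats and 9.21 in controls. Lens content and group thus go together, and this fit cannot tell them apart. Some differences that had not passed became smaller by more than 1.5 times. Between insulin-treated diabetic rats and controls, Eif4ebp1 was then at -0.11 in place of -0.45, and Eif4e2 at -0.06 in place of -0.19. Between insulin-treated and diabetic rats, Eif5a was at -0.10 in place of -0.19, and Eef1a1 at -0.07 in place of -0.14. Others became larger. In diabetes Eef2k was at -0.43 in place of -0.29, and Eif5a2 at -0.59 in place of -0.47. With insulin Eef1akmt1 was at 0.21 in place of 0.15. Of the genes outside the Eif and Eef symbols, Lars1 was at 0.30 in place of 0.48 with insulin (adjusted p = 0.55). Mtrf1l was at 0.35 in place of 0.25 with insulin (adjusted p = 0.16).

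Outside the Eif and Eef symbols, 39 detected genes of the wider machinery were read with the same fit. In diabetic against control rats 1 was higher and 0 lower, beside 0.886% and 1.9% of all probes. It was Mknk1, a kinase of eIF4E, which averaged 7.28 ± 0.16 in diabetic rats and 6.91 ± 0.16 in controls (0.37 ± 0.10, adjusted p = 0.046 in limma). With insulin 4 were higher than in diabetic rats and 1 was lower, beside 6.49% and 3.93% of all probes. Besides Iars1 and Lars1, the higher genes were Abce1, which splits ribosomes after termination (0.39 ± 0.09, adjusted p = 0.017), and the mitochondrial release factor gene Mtrf1l (0.25 ± 0.07, adjusted p = 0.032). The lower one was Dap, a target of mTORC1, at 7.38 ± 0.23 in insulin-treated diabetic rats and 8.06 ± 0.29 in diabetic rats (-0.68 ± 0.17, adjusted p = 0.021). With the lens markers as a covariate, the difference of Dap was -0.13 (adjusted p = 0.81). Without diabetic replicate 2 none of these genes passed, with adjusted p of 0.051 for Abce1, 0.057 for Dap, 0.070 for Mtrf1l and 0.11 for Mknk1. Dap was also lost without diabetic replicate 4 (adjusted p = 0.059), and Mtrf1l without diabetic replicates 1 or 4 or insulin-treated replicates 5, 6 or 7 (0.052 to 0.072). Mknk1 passed only when control 3, diabetic replicate 4 or insulin-treated replicates 4 or 5 were the array left out. Of 9 detected genes of mTORC1 signalling, among them Mtor, Tsc1, Tsc2 and Rps6kb1, 0 passed in these comparisons. Between insulin-treated diabetic rats and controls 0 of the 39 passed. The median over the 39 was -0.16 in diabetes and 0.10 with insulin, beside -0.07 and 0.06 over all probes.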

How the data were processed

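Retinal RNA of 7 insulin-treated diabetic, 5 diabetic and 7 control rats was hybridised to Illumina RatRef-12 arrays on 2 BeadChips, the first with 4, 2 and 3 of these arrays and the second with 3, 3 and 4. The authors subtracted background and scaled each array to a common mean in GenomeStudio (version 1.0.6 in the submitters' processing notes), and these intensities were deposited on a linear scale beside non-normalized intensities and a table with the same values. The deposited detection p-value compares each probe with negative control probes, and the 19 such columns beside the non-normalized signals were left out. Mean non-normalized signals were 307 to 475, 318 to 409.9 and 337 to 433 over the 3 groups, and the number of arrays limits the precision.

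Signals under 10 were set to 10 and log2 was taken. Of 22517 probes, 10718 were kept, those with a detection p under 0.05 throughout 1 or more groups, and fitted in limma 3.58.1 (R 4.3.3), 3 groups in 1 model without covariates, with Benjamini-Hochberg adjustment over the 10718. Calls are an adjusted p under 0.05. Each array is a separate rat, so p-values measure the spread between rats. All factors could be named. Values of every rat are given for those that passed and, in a role with none, for the smallest p. Members, roles, the list of 39 genes, motifs and marker lists were chosen with earlier results of these data known. Near-identical transcripts cannot be told apart, since probe sequences were not examined. Motifs were searched in the 250 bases before the start in RefSeq (GRCr8), taking the first window where a gene had several (3 factors). Motif tables used pandas 2.3.3 and figures matplotlib 3.10.9. The fit was checked on 5 simulated data sets of diabetic against control rats, in which 200 of 10718 probes were changed by 1 on the log2 scale. It recovered 92.3% of these probes, with 11.6 false calls on average. That change is larger than the difference of any factor, so the check does not cover differences of the size reported.

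The settings changed 1 at a time were the normalization (quantile, neqc at offset 16, or median centring of non-normalized signals), the floor (1 or 50), the detection p (under 0.01, or no filter), the test (array weights, an intensity trend, or the methods' t-test), only the 2 groups compared, the mean of a gene's probes, BeadChip or replicate number as a block, each BeadChip alone, and each array left out. The lens covariate and the fit without the 2 arrays of lowest weight were chosen after seeing the data.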

Additional observations from a re-analysis of the deposited data

Results flagged for a closer look

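Of 39 pairs of a described factor and a group, 2 held a rat far from the rest of its group, and chance flags about 1 in 20. For Eif4e2, the diabetic rat of replicate 4 read 8.38 on the log2 scale and the next highest of the group 8.001, a gap of 0.85 of the group's range. For Eef2k, the control of replicate 6 read 7.23 and the next lowest control 7.98, a gap of 0.59 of the range.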

How the results depend on the processing

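Between diabetic and control rats the count of 1 factor was not stable. It was 3 with a floor of 50 (beside 2.87% of all probes) and with an intensity trend (3.52%). It was 2 with a detection p under 0.01 (4.19%), without the detection filter (0.475%) and with array weights (2.06%). At the thresholds of the methods' t-test it was 4 (11.9%), and 1 after Benjamini-Hochberg (1.44%). It was 0 under quantile normalization (2.64%), neqc (2.95%) and median centring of the non-normalized signals (1.37%). It was 0 within BeadChip 1 (0.084%) and 0 within BeadChip 2 (0%). It was also 0 with the lens covariate (1.18%) and 0 without the 2 arrays of lowest weight (0.569%). Leaving out 1 array gave 0 to 2, beside 99 to 393 of all probes. Without diabetic replicate 2 the 1 factor was Eif1b in place of Eef1e1. The adjusted p of Eef1e1 ranged over all alternatives from 0.015 to 0.41. Between insulin-treated and diabetic rats the count of 3 was 5 with median-centred non-normalized signals (beside 11.1% of all probes). It was 4 with a floor of 50 (9.39%), without the detection filter (2.64%), with an intensity trend (11.5%) and with array weights (10.6%). By the methods' t-test after Benjamini-Hochberg it was 3 (3.24%), with Eif2b4 in place of Eif1ad, and at that test's thresholds it was 4 (16%). It was 0 within BeadChip 1 (0.0746%), 0 within BeadChip 2 (3.31%), 0 with the lens covariate (0.0187%) and 1 without the 2 arrays of lowest weight (4.81%). With 1 array left out it was 2 to 6, beside 542 to 1494 of all probes. It was 6 without insulin-treated replicate 4 (13% of all probes) and 5 without diabetic replicate 5 (11.2%), Eif2b5 and Eif2s2 passing in both. The adjusted p ranged from 0.0012 to 0.21 for Eif1b, from 0.0039 to 0.43 for Eef1e1 and from 0.0074 to 0.32 for Eif1ad. Between insulin-treated diabetic rats and controls the count stayed at 0, except for 1 (Eif4ebp1) at the thresholds of the methods' t-test, beside 5.58% of all probes. With 1 array left out it was 0 to 0, beside 1 to 17 of all probes. For Eef1a1 the difference with insulin, -0.14, was 0.04 under quantile normalization and 0.04 under neqc (0.0412 and 0.0409). The cause of these changes was not tested, and each BeadChip alone holds fewer samples.

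Numbers do not pair the rats: over 17 same-numbered pairs the deviations correlated at -0.24 to 0.27, and 2 of 19 arrays correlated best with their own number. With the replicate number as a block, 0 factors passed in diabetes (80 probes in all), 2 with insulin (482 probes) and 0 between insulin-treated diabetic rats and controls (0 probes). Over 960 values of single genes under an alternative, 844 kept direction and call, 108 lost the call, 6 gained it and 2 turned. These values include results without a call in the main fit, which had none to lose, so the 844 do not measure how stable the calls were. A called result lost its call in 3 of 37 alternatives (Eif1b with insulin) to 26 of 37 (Mknk1 in diabetes). For Eef1e1 it was 15 of 37 in diabetes and 5 of 37 with insulin. Eif5a2 had no value with a floor of 50. Scaling moved the median of all probes in diabetes from -0.07 to -0.02 (quantile) or -0.01 (neqc), and the factors below 0 from 38 to 31 and 31. The share of higher among all probes called in diabetes was 31.8%, and 56.5% under quantile normalization, 56.3% under neqc and 48.3% with median centring.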
